A study of Mus musculus with 6 samples.

Results

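Blood reaches a lung RNA sample in 2 forms, as red cells left in the vessels and as white cells in the vessels and the tissue. The blood-lineage miRNAs described here are 7 mature miRNAs picked by name. The rule uses no measured value, although earlier results of these data were known when the list was drawn up. For red cells these are mmu-miR-451a, mmu-miR-144-3p and mmu-miR-486a-5p, and for white cells mmu-miR-142a-3p, mmu-miR-142a-5p, mmu-miR-150-5p and mmu-miR-223-3p. All 7 have a probe among the 1963 mouse miRNA probes of the array. The probe for mmu-miR-486a-5p also stands for miR-486b-5p, whose mature sequence is the same. The question was whether blood content or leukocyte content, read through these miRNAs, differed between the lungs of saline and bleomycin mice.

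The samples were whole lungs of wild-type C57Bl6 mice, aged 8 to 10 weeks, with 1 mouse on each of 6 single-dye arrays. The 3 WT mice received saline into the trachea, and the 3 WT-BLM mice received bleomycin (BLM), a drug that injures the lung, at 1.5 U/kg body weight. Lungs were collected at day 21. They were washed with cold PBS before freezing, a step that can remove some blood, and lungs of IKBM mice were not analysed here. No group carried a transgene. Lung RNA of this kind mixes all cells of the organ, so that fewer cells of a type and less RNA per cell cannot be told apart.

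miRNAs are short RNAs that lower the output of messenger RNAs by pairing through the seed, which is bases 2 to 8 from the 5′ end. miR-451a and miR-144 are made from one primary transcript, which the erythroid factor GATA1 switches on as red cells mature, and miR-451a is unusual in being cut by Argonaute 2 and not by Dicer. miR-486 accompanies red cell maturation too, but its gene lies in Ank1, and striated muscle also makes it. miR-142 is found in nearly all blood cell lineages, miR-150 in mature B and T lymphocytes, where it targets Myb, and miR-223 in neutrophils and other myeloid cells.

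The mature sequences below are shown because both lineages were read only through hybridization to them, and because their base content is set beside the values further on. They are the RefSeq sequences for mouse assembly GRCm38.p6, which hold 5 of the 7 members and are identical to the targets of the array, written 5′ to 3′ with the seed in capitals.
mmu-miR-451a: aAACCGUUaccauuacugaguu
mmu-miR-144-3p: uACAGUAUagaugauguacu
mmu-miR-142a-3p: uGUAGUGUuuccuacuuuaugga
mmu-miR-142a-5p: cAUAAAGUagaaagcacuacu
mmu-miR-223-3p: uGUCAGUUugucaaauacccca

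All 5 seeds differ, and 0 other miRNA probes of the array share any of them. The sequence of miR-144-3p lies at chr11:78073047-78073066 and that of miR-451a at chr11:78073186-78073207, both on the plus strand, with 99 bases between the genes Mir144 and Mir451a. Both arms of miR-142a come from one hairpin, with miR-142a-5p at chr11:87756867-87756887 and miR-142a-3p at chr11:87756903-87756925 on the plus strand. On the opposite strand lies miR-142b, whose 20 bases are the reverse complement of part of miR-142a-3p. miR-223-3p lies at chrX:96242884-96242905 on the plus strand.

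Every value below is a log2 intensity after background correction with an offset of 50 and quantile normalization between arrays, averaged over the 2 spots of a probe, unless another scale is named. A probe counted as detected on an array when its intensity was more than 3 SD of the empty spots above their median. Probes detected on at least 3 arrays, 275 in all, were tested with limma. All 7 blood-lineage miRNAs passed this filter: miR-451a, both arms of miR-142a, miR-150-5p and miR-223-3p were detected on 6 arrays, miR-144-3p on 5 and miR-486a-5p on 4. Of the listed endothelial miRNAs, miR-126a-3p was detected on all 6 arrays and miR-126a-5p on 3. The epithelial miR-141-3p, miR-200c-3p, miR-200b-3p and miR-200a-3p were detected on all 6 arrays. The array of WT mouse 3 stands apart. It had 132 detected probes against 176 to 365 on the others, and its median signal over the tested probes was 129 above the empty spots against 224 to 282. The fold changes of the 7 miRNAs are therefore also given without it.

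No difference between WT-BLM and WT lungs passed the test for any of the 7 blood-lineage miRNAs. The log2 fold changes, WT-BLM over WT, lay between -0.14 for miR-486a-5p and 0.21 for miR-142a-3p, or from 0.909-fold to 1.16-fold, and the adjusted p was 1 for each (limma, Benjamini-Hochberg over 275 miRNAs). For each of the 7 the groups overlapped. Over all 275 tested miRNAs, 0 (0%) had an adjusted p under 0.05, 5 (1.82%) had an unadjusted p under 0.05, and 13 (4.73%) had groups without overlap. The methods' t-test likewise gave 0 after adjustment, with 7 miRNAs under an unadjusted p of 0.05 without pairing and 9 with pairing, and no blood-lineage miRNA was among those called by limma. Groups of 3 mice limit what can be seen, and the exact permutation test, two-sided, cannot reach a p under 0.1 with 3 mice a group.

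**Figure D1:**
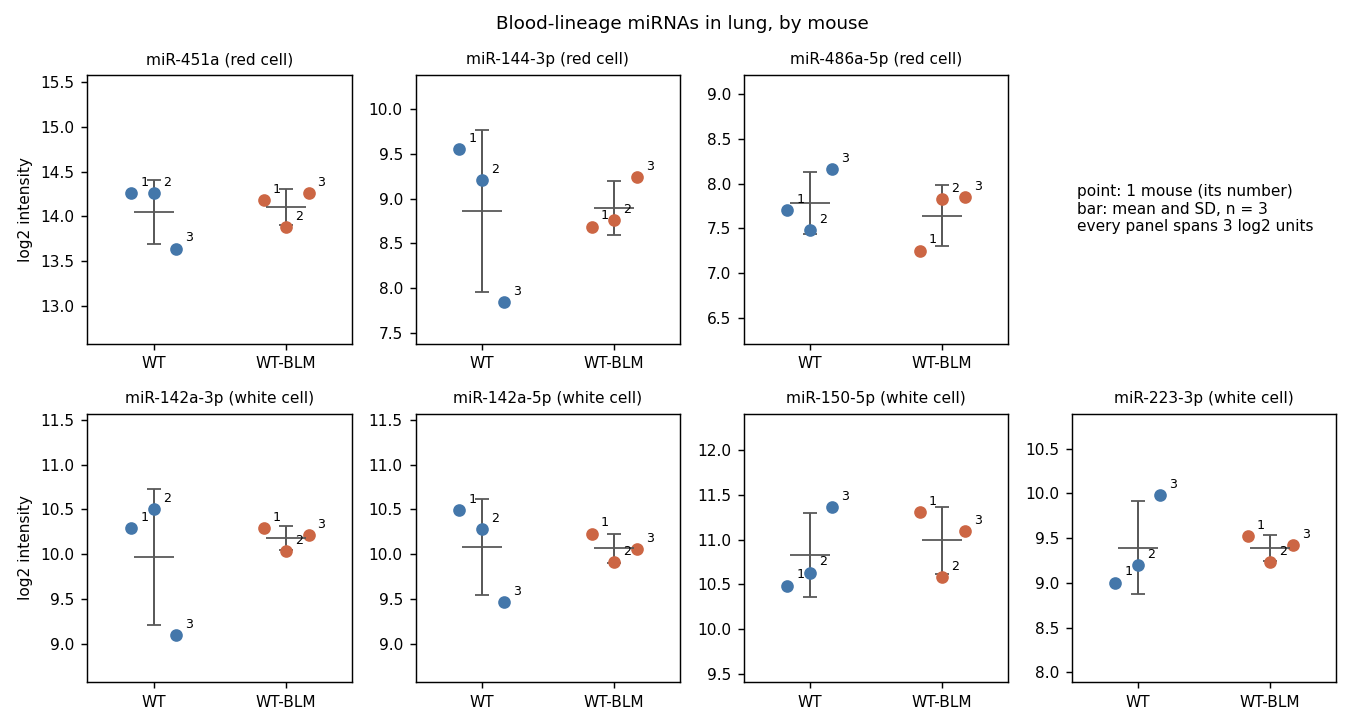
Log2 intensity of the 7 blood-lineage miRNAs in WT and WT-BLM lungs, with 1 point for each mouse, labelled by its number, and bars for the mean and SD of 3 mice. WT mouse 3 is the lowest WT mouse for miR-451a, miR-144-3p and both arms of miR-142a and the highest for the 3 other miRNAs, and the groups overlap in every panel.

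The red cell miRNA miR-451a stood at 14.26, 14.26 and 13.64 in WT mice 1, 2 and 3, and the WT-BLM mice 1, 2 and 3 had 14.18, 13.88 and 14.26. Quantile normalization acted on single spots and gives spots of the same rank the same value on every array. The equal values of 3 mice can arise in this way. The lowest mouse was WT mouse 3, and WT-BLM mouse 2 came next. The mean was 14.05 ± 0.36 (SD, n = 3) in WT and 14.11 ± 0.20 in WT-BLM lungs, for a log2 fold change of 0.05 (SE, the standard error, 0.26, adjusted p = 1 in limma). Its 95% interval ran from 0.680-fold to 1.58-fold, and without WT mouse 3 the log2 fold change was -0.16 (adjusted p = 0.977 in limma). Before normalization the signal above the empty spots was 20491, 22417 and 9142 with saline and 15348, 22751 and 19836 with bleomycin. The spots of WT mouse 3 read 11436 and 6848, the widest disagreement between the spots of this probe.

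miR-144-3p, the partner of miR-451a on the primary transcript, varied more. It read 9.56, 9.20 and 7.84 with saline and 8.69, 8.76 and 9.24 with bleomycin, the mice always in the order 1, 2, 3. WT mouse 3 was again the lowest, on the only array where the probe was not detected, and WT mouse 1 was the highest. The spots of WT mouse 3 disagreed, at 163 and 60.8 above the empty spots. The SD was 0.91 in WT and 0.30 in WT-BLM lungs, and the pooled SD of 0.67 was larger than that of 86.2% of the tested miRNAs. The log2 fold change of 0.03 (SE 0.45) had a 95% interval from 0.492-fold to 2.11-fold, the widest of the 7 on the log2 scale. Without WT mouse 3 the log2 fold change was -0.49, with an unadjusted p of 0.104 and an adjusted p of 0.665 in limma. The opposite arm, miR-144-5p, was detected on 4 arrays and stood at 8.02, 7.72 and 7.24 with saline and 7.33, 7.85 and 7.38 with bleomycin, with WT mouse 3 the lowest here too and a log2 fold change of -0.14 (SE 0.28, adjusted p = 1 in limma). It was -0.37 without WT mouse 3 and 0.037 without WT mouse 1.

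For miR-486a-5p the values were 7.70, 7.48 and 8.16 with saline and 7.25, 7.83 and 7.85 with bleomycin, with WT mouse 3 the highest and WT-BLM mouse 1 the lowest. On the arrays of these same mice the probe was not detected, since their empty spots varied more (SD 59.3 and 45.2 against 8.01 to 18.1 on the other arrays). The log2 fold change was -0.14 (SE 0.28), with a 95% interval from 0.575-fold to 1.44-fold, and it was 0.053 without WT mouse 3 (adjusted p = 0.998 in limma). This probe was dim, at 98.8 to 205 above the empty spots over the 6 arrays, and the offset shrinks the fold changes of such probes. Since muscle also makes miR-486, the striated muscle miRNAs were set beside it. miR-1a-3p, miR-133a-3p, miR-133b-3p and miR-206-3p were all highest in WT mouse 2, where miR-1a-3p stood at 12.96 against 9.63 to 11.35 in the other 5 mice and miR-206-3p was detected on that array alone. The summed linear level of the 3 tested muscle miRNAs was 1146 to 11380 in WT and 1514 to 2244 in WT-BLM lungs. In WT mouse 2, miR-486a-5p was the second lowest of the 6 mice.

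The white cell miRNAs began with miR-142a, which marks nearly all leukocytes. miR-142a-3p stood at 10.29, 10.51 and 9.10 with saline and at 10.29, 10.03 and 10.21 with bleomycin. The WT-BLM mice lay close together (SD 0.13), and WT mouse 3 was below the rest. The log2 fold change of 0.21 (SE 0.38) turned to -0.23 without WT mouse 3, with an adjusted p of 0.897 in limma. With all mice its 95% interval ran from 0.626-fold to 2.15-fold, the highest upper limit of the 7 miRNAs. The other arm, miR-142a-5p, read 10.49, 10.28 and 9.47 with saline and 10.23, 9.91 and 10.05 with bleomycin. Thus the same mouse was lowest for both arms, while the log2 fold change of miR-142a-5p was -0.02 (SE 0.31) with a 95% interval from 0.601-fold to 1.63-fold. It was -0.33 without WT mouse 3 (adjusted p = 0.813 in limma). On the array of WT mouse 2 the spots of miR-142a-3p read 1387 and 2555 above the empty spots, and this was the highest mouse for that arm.

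miR-150-5p, the lymphocyte miRNA, stood at 10.49, 10.63 and 11.37 with saline and at 11.31, 10.58 and 11.09 with bleomycin. WT mouse 3 and WT-BLM mouse 1 were the highest, and WT mouse 1 was the lowest. The mean was 10.83 ± 0.47 (SD, n = 3) in WT and 10.99 ± 0.37 in WT-BLM lungs, for a log2 fold change of 0.16 (SE 0.32) with a 95% interval from 0.666-fold to 1.88-fold. Without WT mouse 3 the log2 fold change was 0.43, with an adjusted p of 0.738 in limma.

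miR-223-3p, the myeloid miRNA, read 9.00, 9.20 and 9.98 with saline and 9.52, 9.23 and 9.42 with bleomycin. The WT mice spanned the whole range, with WT mouse 1 the lowest and WT mouse 3 the highest, and all 3 WT-BLM mice fell between them. The group means were 9.39 ± 0.52 (SD, n = 3) and 9.39 ± 0.15, and the log2 fold change was 0.00076 (SE 0.30), with a 95% interval from 0.616-fold to 1.63-fold. The spots of WT mouse 3 disagreed, at 923 and 441 above the empty spots. Without this mouse the log2 fold change was 0.30, with an adjusted p of 0.852 in limma.

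**Figure D2:**
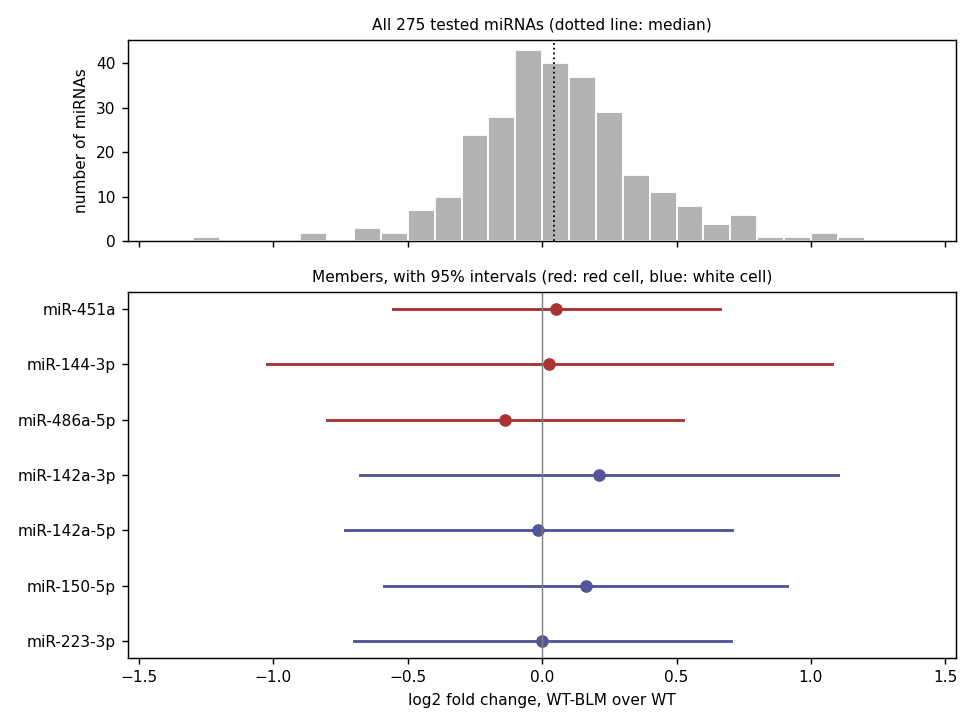
Upper panel, number of miRNAs at each log2 fold change of WT-BLM over WT for the 275 tested miRNAs, with their median of 0.04 as a dotted line; lower panel, log2 fold change of each blood-lineage miRNA with its 95% interval from limma. All 7 intervals include 0, and the widest belongs to miR-144-3p.

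Taken as lists, the 3 red cell miRNAs had a median log2 fold change of 0.03, with 2 higher and 1 lower in WT-BLM lungs, and the 4 white cell miRNAs one of 0.08, with 3 higher and 1 lower. The median over all 275 tested miRNAs was 0.04, with 155 higher and 120 lower. Without WT mouse 3 the medians were -0.16 for the red cell and 0.038 for the white cell list. When the arrays were scaled to the 75th percentile of the probes detected on all 6, the medians were -0.24 for the red cell list, -0.13 for the white cell list and -0.22 for all 275. The summed linear level of the red cell miRNAs was 13297 to 20559 in WT and 15713 to 20432 in WT-BLM lungs, with 95.3% to 97.1% of it from the probe of miR-451a, so that it restates that probe. For the white cell miRNAs it was 4639 to 4908 in WT and 4142 to 5717 in WT-BLM lungs, so that the range of the WT mice lay inside that of the WT-BLM mice.

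In WT mouse 3 the 7 miRNAs did not divide by lineage, and the WT-BLM mice differed from this. As deviations from the mean over 6 mice, red cell miRNAs ran from -0.46 to 0.10 and white cell miRNAs from 0.13 to 0.39 in WT-BLM mouse 1. The ranges were -0.20 to 0.12 and -0.33 to -0.038 in WT-BLM mouse 2, and 0.14 to 0.36 and -0.019 to 0.18 in WT-BLM mouse 3. In WT mice 1 and 2 each list had values on both sides of 0. WT mouse 3 was the lowest of the 6 mice for miR-451a, miR-144-3p, miR-142a-3p and miR-142a-5p and the highest for miR-486a-5p, miR-150-5p and miR-223-3p. Against the mean of the other WT mice its difference was -0.62, -1.54, -1.30 and -0.92 for the first 4 and 0.57, 0.81 and 0.88 for the last 3. Each set thus holds miRNAs of both lineages. Over all 275 tested miRNAs, WT mouse 3 was the lowest for 43.3% and the highest for 23.6%, so at an extreme for 66.9%, against 20.4% to 35.3% for the other mice. Without normalization between arrays, and with scaling to the 75th percentile of all probes, it was the lowest for the same 4 and the highest for 0. With scaling to the 75th percentile of the probes detected on all 6 arrays it was the lowest for 3, miR-142a-5p being the exception, and the highest for 3. In the authors' own normalized intensities the same 4 were lowest and the same 3 highest in this mouse, for example 158 for miR-144-3p against 330 to 584 in the other 5 mice, and 939 for miR-223-3p against 392 to 642.

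**Figure D3:**
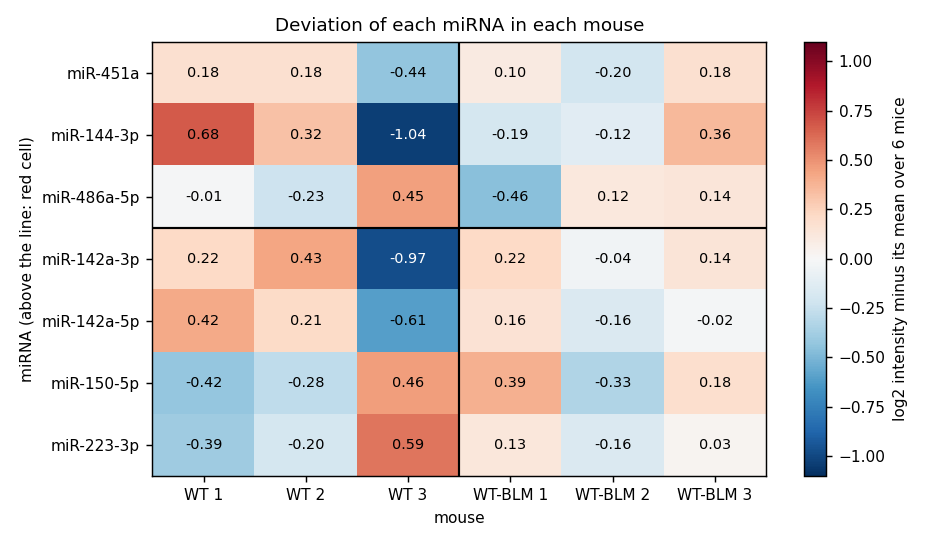
Log2 intensity of each blood-lineage miRNA in each mouse minus its mean over the 6 mice, with red cell miRNAs above the line and WT mice to its left. WT mouse 3 runs from -1.04 for miR-144-3p to 0.59 for miR-223-3p, and the WT-BLM mice stay between -0.46 and 0.39.

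Base content was also set beside these sets, which the choice of members did not use. The share of G and C in the target was 36.4% for miR-451a, 30% for miR-144-3p, 34.8% for miR-142a-3p and 33.3% for miR-142a-5p, against 63.6% for miR-486a-5p, 54.5% for miR-150-5p and 40.9% for miR-223-3p. The median over the 275 tested miRNAs was 47.4%. These 275 are not independent replicates and share an array. Across them, the deviation of WT mouse 3 from the mean of the 6 mice had a correlation with the share of G and C of -0.16. Its median deviation was -0.11 for targets under 45% and -0.21 for those at 45% or more. The sign is thus the reverse of that among the 7 miRNAs, where the targets with least G and C were lowest in this mouse. On the other arrays the correlation lay between -0.13 and 0.28, the highest being that of WT-BLM mouse 2. When the trend on base content was removed from each array, WT mouse 3 was the lowest for those 4 miRNAs and the highest for those 3, and the log2 fold changes of all 7 lay between -0.26 and 0.17. This correction was chosen after the pattern had been seen, and the part of base content in the pattern was not tested.

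Correlations of log2 intensity between members were computed over the 6 mice for all 21 pairs, with exact permutation tests. Of these, 9 were positive and 12 negative, 9 had an unadjusted p under 0.05 and 0 an adjusted one, the smallest being 0.0583. For miR-451a and miR-144-3p the values were Pearson's r = 0.90 (exact p = 0.0167, adjusted p = 0.0681) and Spearman's rho = 0.88 (exact p = 0.05, adjusted p = 0.233). Both arms of miR-142a came close to this (r = 0.91, exact p = 0.0125, adjusted p = 0.0681; rho = 0.94, exact p = 0.0167, adjusted p = 0.175), with r = 0.84 without WT mice 2 and 3. For miR-150-5p and miR-223-3p the values were r = 0.90 (exact p = 0.00278, adjusted p = 0.0583) and rho = 0.94 (exact p = 0.0167, adjusted p = 0.175), with r = 0.90 without WT mouse 3 and WT-BLM mouse 1. The pair with miR-451a and that of the arms of miR-142a each share a locus. miR-150-5p and miR-223-3p are white cell miRNAs, but of lymphocytes and of myeloid cells. Pairs across the red and white cell lists reached the same size with all 6 mice. miR-451a had r = 0.92 with miR-142a-3p (exact p = 0.0167, adjusted p = 0.0681; rho = 0.82, exact p = 0.0667, adjusted p = 0.233). For pairs with miR-451a, the mice farthest from its median were WT mouse 3 and WT-BLM mouse 2. Of the 4 values of miR-451a left without them 3 are equal, so that r then sets WT-BLM mouse 1 alone against the rest and does not tell whether a relation rests on the mice left out. It was 0.90 with miR-144-3p, 0.19 with miR-142a-3p and 0.82 with miR-486a-5p.

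For other pairs the sign depended on the scaling of the arrays. Between miR-451a and miR-486a-5p r was -0.70 (exact p = 0.133, adjusted p = 0.187; rho = -0.39, exact p = 0.45, adjusted p = 0.525), but -0.070 without normalization, 0.098 with the 75th percentile of detected probes and 0.51 with that of all probes. Between miR-144-3p and miR-486a-5p r was -0.45 (exact p = 0.379, adjusted p = 0.419; rho = -0.14, exact p = 0.803, adjusted p = 0.803) and 0.35 without WT mice 1 and 3, and it was 0.46 with the 75th percentile of all probes. The general leukocyte miRNA miR-142a-3p and the myeloid miR-223-3p had r = -0.83 (exact p = 0.0764, adjusted p = 0.146; rho = -0.71, exact p = 0.136, adjusted p = 0.238), and this was 0.057 without WT mice 2 and 3. It was -0.15 without normalization, -0.26 with the 75th percentile of detected probes and 0.52 with that of all probes.

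The miRNAs most like miR-451a over the 6 arrays, by Pearson's r among 274 other tested miRNAs, were miR-374c-5p (0.99), miR-29b-3p (0.99), miR-3962 (0.94), miR-709 (0.93) and miR-669l-5p (0.92). Its transcript partner miR-144-3p came in place 14. Most like miR-142a-3p were miR-218-5p (0.98), miR-6929-3p (0.96), miR-669l-5p (0.95), miR-709 (0.95) and miR-466f (0.95), with miR-142a-5p in place 19. All of these were lowest in WT mouse 3, and miR-709 and miR-669l-5p stand in both lists, which share their arrays.

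The other miRNAs of the same loci were mostly too dim to test. Of 7, only miR-144-5p passed, while miR-451b, miR-486a-3p, miR-486b-3p, miR-142b, miR-150-3p and miR-223-5p were detected on no array. Of 5 further miRNAs that are plentiful in red cells, miR-16-5p, miR-25-3p, miR-92a-3p and miR-185-5p were tested and miR-363-3p was detected on no array. Among the 4 tested, 2 were higher and 2 lower in WT-BLM lungs, between -0.25 for miR-92a-3p and 0.19 for miR-25-3p on the log2 scale, and none had an unadjusted p under 0.05. Their median of -0.035 changed sign with any of WT mice 2 and 3 and WT-BLM mice 1 and 3 left out, to 0.12 without WT mouse 3 and at most to 0.13. These miRNAs are also made by many other cells. On the array of WT mouse 1 the spots of miR-25-3p read 558 and 112 above the empty spots. In the authors' normalized intensities its mean was 543 in WT and 543 in WT-BLM lungs. The spots of miR-185-5p disagreed by more than 1 log2 unit on 2 arrays. miR-16-5p ranged from 10.86 in WT-BLM mouse 3 to 12.91 in WT-BLM mouse 2, so both extremes were WT-BLM mice.

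Of 6 further leukocyte miRNAs, 5 were tested, with 4 higher and 1 lower in WT-BLM lungs and 0 with an unadjusted p under 0.05 in limma. Their median was 0.14, and 0.32 without WT mouse 3 and 0.0093 without WT mouse 2. miR-155-5p, which activated lymphocytes and macrophages raise, stood at 7.96, 7.67 and 8.32 with saline and 8.20, 7.88 and 8.29 with bleomycin, a log2 fold change of 0.14 (SE 0.25). For miR-146a-5p, a brake on NF-κB signalling, the log2 fold change was 1.00 (SE 0.62, adjusted p = 1 in limma). It was 10.05, 12.01 and 12.71 with saline and 12.65, 12.32 and 12.80 with bleomycin, and WT mouse 1 was the low one, where its spots read 7164 and 92.5 above the empty spots. In the authors' normalized intensities this mouse was the highest of the 6, at 6839. miR-342-3p had a log2 fold change of 0.27, miR-181a-5p one of 0.08 and miR-181b-5p one of -0.09, each with overlap between the groups, and miR-342-5p was detected on no array.

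In plasma and serum, miR-451a minus miR-23a-3p is used to grade haemolysis, the breaking of red cells. In lung RNA miR-23a-3p also comes from many resident cells, so the difference is given here only as a value. On the log2 scale it was 1.65, 1.02 and 1.12 with saline and 1.05, 0.43 and 1.71 with bleomycin. The groups overlapped, with means of 1.26 ± 0.34 (SD, n = 3) and 1.06 ± 0.64 (exact permutation test, two-sided p = 0.7). In the authors' normalized intensities the means were 1.39 and 1.12 (exact permutation test, two-sided p = 0.6). WT-BLM mouse 2 had the lowest difference on both scales, and its miR-23a-3p, at 13.45, was the highest of the 6 mice. WT mouse 3, the lowest mouse for miR-451a itself, had a difference inside the range of the other mice. The WT-BLM mean minus the WT mean was -0.20, and it turned to 0.11 without WT-BLM mouse 2.

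For the resident cells of the lung, the median log2 fold changes were 0.49 for the 2 endothelial miRNAs, 0.24 for the 4 epithelial ones, -0.47 for the 2 of smooth muscle and -0.82 for the 3 tested of striated muscle, and none of these had an unadjusted p under 0.05. The muscle medians rested on single mice. Without WT mouse 2 the striated muscle median was 0.025, and without WT mouse 3 it was -1.67. miR-143-3p of smooth muscle was low only in WT-BLM mouse 1, at 11.64 against 13.53 to 14.01 in the other mice, where its spots read 10953 and 730 above the empty spots, and without that mouse the smooth muscle median was -0.17. The spots of miR-200a-3p on the array of WT mouse 3 read 186 and 2166 above the empty spots, those of miR-141-3p in WT mouse 1 read 949 and 179, and those of miR-126a-3p in WT mouse 1 read 19618 and 4617. In the authors' normalized intensities the WT and WT-BLM means were 2750 ± 592 and 2890 ± 386 (SD, n = 3) for miR-200a-3p, 697 ± 284 and 762 ± 98.8 for miR-141-3p, and 13467 ± 6834 and 18705 ± 4070 for miR-126a-3p. The epithelial median was 0.014 without WT mouse 2 and 0.15 without WT mouse 3. The endothelial median was 0.33 without WT mouse 3. Without WT-BLM mouse 2 it was 0.85, and without WT-BLM mouse 3 it was 0.82, with 1 miRNA of the list passing the filter in each case. Their spread between mice was in part larger than that of the blood-lineage miRNAs: miR-1a-3p had an SD of 1.66 in WT lungs, against 0.35 to 0.91 for the red cell and 0.47 to 0.76 for the white cell miRNAs.

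**Figure D4:**
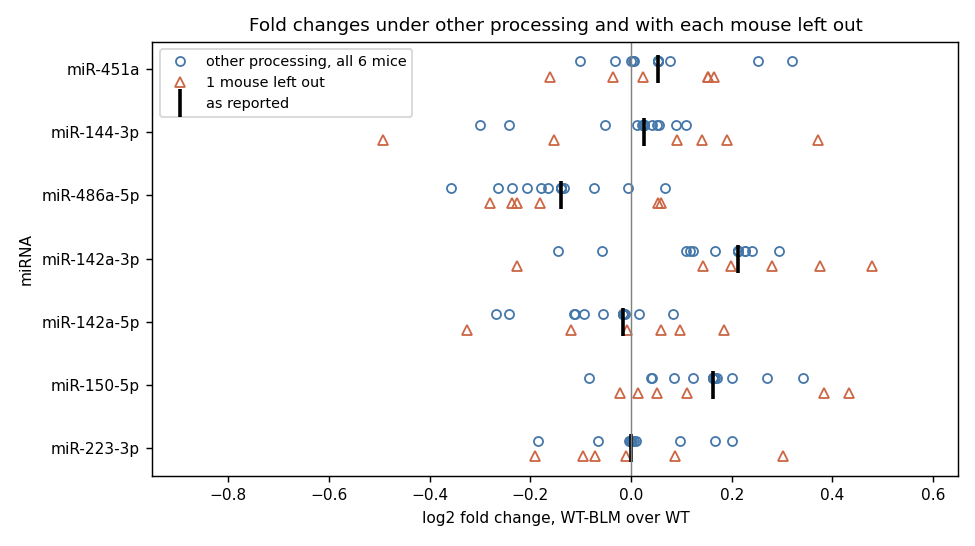
Log2 fold change of each blood-lineage miRNA, WT-BLM over WT, as reported (black bars), under other processing of the 6 arrays (circles) and with 1 mouse left out at a time (triangles). Every miRNA has values on both sides of 0, from -0.49 for miR-144-3p without WT mouse 3 to 0.48 for miR-142a-3p without WT mouse 2.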

How the data were processed

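Lung miRNA of 6 mice was measured on 1-dye arrays, with 1 mouse on each array, and groups were taken from the labels. The deposited intensity values are spot signals before background subtraction, made by the array service. A normalized table by the authors, in linear intensity rounded to whole numbers, has a normalization method that is not given in the sources used here. Its array medians were 3 to 4, and its log2 values correlated with those used here at 0.974 to 0.996 over the 116 probes detected on every array.

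Spot intensities were corrected with normexp fitted on all spots (offset 50), freed of control spots, quantile normalized between arrays and averaged per probe in limma 3.58.1 (R 4.3.3). Probes more than 3 SD above the median of the empty spots on at least 3 arrays were fitted with lmFit and eBayes, without a block, and p-values were adjusted by Benjamini-Hochberg. These steps were tested on simulated data, with changes larger than those of the blood-lineage miRNAs. That test does not tell whether changes of the size seen here could be found. The study's methods give ANOVA or a paired t-test without stating the pairs, so both t-test forms were alternatives, beside other normalizations, filters, offsets, array weights, a replicate block and each mouse left out. The number of arrays limits the precision.

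Named were the members, other miRNAs of their loci, listed markers of blood and lung cell types, miR-23a-3p, and the 5 tested miRNAs most like miR-451a and miR-142a-3p. Members and lists were chosen with earlier results of these data known.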

Additional observations from a re-analysis of the deposited data

How the results depend on the processing

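Under 22 alternatives, which include both forms of the methods' t-test, the adjusted p of the 7 miRNAs never fell below 0.05, and the smallest unadjusted p was 0.104, but directions were not stable: of 152 fold changes, 40 equalled the reported value, and 31 of the other 112 changed sign. The cause was not tested. Scaling to the 75th percentile of the probes detected on all 6 arrays, which moved the median of all tested miRNAs to -0.22, gave -0.031 for miR-451a, -0.24 for miR-144-3p and the red cell median, -0.057 for miR-142a-3p, -0.082 for miR-150-5p, -0.19 for miR-223-3p and -0.13 for the white cell median. With the percentile of all probes, which moved that median to 0.13, miR-142a-5p was 0.084, and without normalization it was 0.015. Subtraction of the empty spots moved that median to 0.14. Cyclic loess gave -0.052 for miR-144-3p and the red cell median and -0.0028 for miR-223-3p, and the authors' values with an offset of 50 gave -0.0038 for miR-223-3p. Array weights gave -0.10 for miR-451a and the red cell median, -0.30 for miR-144-3p, 0.067 for miR-486a-5p and -0.15 for miR-142a-3p. Removal of the trend on base content, chosen after seeing the data, gave -0.00042 for miR-451a and the red cell median and -0.065 for miR-223-3p.

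With 1 mouse left out, log2 fold changes ran from -0.16 to 0.16 for miR-451a, -0.49 to 0.37 for miR-144-3p, -0.28 to 0.060 for miR-486a-5p, -0.23 to 0.48 for miR-142a-3p, -0.33 to 0.19 for miR-142a-5p, -0.021 to 0.43 for miR-150-5p and -0.19 to 0.30 for miR-223-3p. The medians ran from -0.16 to 0.15 for the red cell and -0.029 to 0.18 for the white cell list. Left out in the same way, a step added after seeing the data, the medians ran from -0.37 to 0.037 for the same loci, -0.28 to 0.13 for other red cell, 0.0093 to 0.32 for other leukocyte, 0.33 to 0.85 for endothelial, -0.62 to -0.17 for smooth muscle, 0.014 to 0.27 for epithelial and -1.67 to 0.025 for striated muscle miRNAs, and the group difference of miR-451a minus miR-23a-3p from -0.53 to 0.11.

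The number of tested miRNAs with an unadjusted p under 0.05, which was 5, became 8 with the percentile of detected probes, 2 with that of all probes, 8 with cyclic loess, 46 of 1963 with no filter, 1 of 116 among probes detected on all arrays, 14 with array weights and 9 with the paired t-test. It ran from 0 to 20 with 1 mouse left out: 10 without WT mouse 1, 20 without WT mouse 3, 3 without WT-BLM mouse 1 and 0 without WT-BLM mouse 3. With the replicate number as a block it was 8, and no call on the 7 miRNAs changed. Same-numbered mice deviated together with correlations of 0.16, 0.028 and 0.073, so the numbers were not taken to pair them.

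Among the correlations, the percentile of all probes gave r = 0.97 for miR-451a and miR-144-3p (exact permutation test, adjusted p = 0.0292), 0.99 for the arms of miR-142a (exact permutation test, adjusted p = 0.0389) and 0.94 for miR-150-5p and miR-223-3p (exact permutation test, adjusted p = 0.0292). It turned miR-486a-5p to 0.51 with miR-451a and 0.46 with miR-144-3p, and miR-142a-3p with miR-223-3p to 0.52. The percentile of detected probes gave 0.098 for miR-451a with miR-486a-5p, and cyclic loess 0.91 for the arms of miR-142a (exact permutation test, adjusted p = 0.0292). Without normalization r was 0.75 for miR-150-5p and miR-223-3p (exact permutation test, p = 0.128, adjusted p = 0.383), -0.070 for miR-451a and miR-486a-5p, -0.17 for miR-144-3p and miR-486a-5p and -0.15 for miR-142a-3p and miR-223-3p. The percentile of detected probes gave -0.037 for miR-144-3p with miR-486a-5p and -0.26 for miR-142a-3p with miR-223-3p. Slide and scan could not be used as blocks, since the files give neither.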
